A study of Mus musculus with 77 samples.

Results

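Alas2 and the 4 adult globin genes of the mouse, Hba-a1, Hba-a2, Hbb-bs and Hbb-bt, were followed in 24 livers by the reads on their coding sequences (CDS), in total RNA and in ribosome-protected fragments (RPFs). The 5 genes were chosen by name among the 25266 genes listed, and all 5 were among the 10696 that passed the filter on low counts. The mice were healthy adult males on a C57BL/6J background, 12 to 24 weeks old, of 2 whole-body knockout lines with the alleles Aco1tm1.1Mwh and Ireb2tm1.2Mwh. Aco1 encodes IRP1 and Ireb2 encodes IRP2, the iron regulatory proteins. Aco1+/+, Aco1-/-, Ireb2+/+ and Ireb2-/- livers were taken at ZT5 and at ZT12 (hours after lights on, in a cycle of 12 hours of light and 12 of darkness), with 3 mice in each of the 8 groups. Every liver gave 1 RPF and 1 RNA library, 48 in all. Mouse numbers ran in a separate series for each combination of line and timepoint, so whatever those series stand for cannot be told apart from these combinations, and whether the livers were perfused to remove blood is not given in the sources used here.

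ALAS2 is the erythroid form of 5-aminolevulinate synthase, the enzyme that starts heme synthesis in developing red cells, and ALAS1 is the form used by other tissues. The Alas2 mRNA carries an iron-responsive element (IRE) in its 5′ UTR, where the iron regulatory proteins bind and hold back translation. Alpha and beta globin join heme to form hemoglobin. Their mRNAs are made in erythroid precursors and persist in reticulocytes, the young red cells that circulate in blood, so a liver that holds blood also holds globin mRNA. The question addressed was how much of the Alas2 signal in liver went along with globin mRNA, and how both behaved with genotype and time. In bulk tissue, fewer cells of a type and less RNA per cell cannot be told apart.

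Alas2 (ENSMUSG00000025270) lies on chromosome X at 150547417 to 150570622 of GRCm38.p6, on the plus strand. The alpha globin copies lie side by side on chromosome 11, Hba-a1 (ENSMUSG00000069919) at 32283672 to 32284486 and Hba-a2 (ENSMUSG00000069917) at 32296492 to 32297310, both on the plus strand. The beta globin genes lie on the minus strand of chromosome 7, Hbb-bs (ENSMUSG00000052305) at 103826523 to 103827928 and Hbb-bt (ENSMUSG00000073940) at 103812524 to 103813923. Promoter windows of 250 bases before to 50 bases after the start were available from RefSeq for all 5 genes. The windows of Hba-a1 and Hba-a2 were identical at 297 of 297 aligned bases, and those of Hbb-bs and Hbb-bt at 168 of 299 (56.2%). Erythroid genes are known for GATA1 and KLF1 control, so the short motifs linked to these factors were searched on both strands. The GATA motif AGATAA, its variant TGATAA, or the form of either that ends in G (spelled AGATAG for the one and TGATAG for the other) was found in 4 of the 5 windows, against 30.2% of 27025 RefSeq promoter windows. The stretches around these matches are shown because they set Alas2 beside the globins, with the match in capitals, each on the strand of its gene. In Alas2 the motif reads on the opposite strand.
Alas2, chrX:150547319-150547348: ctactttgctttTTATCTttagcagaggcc
Hba-a1, chr11:32283477-32283506: tgtccgggcaacTGATAAggattccctgca
Hba-a2, chr11:32296294-32296323: tgtccgggcaacTGATAAggattccctgca
Hbb-bs, chr7:103828121-103828150: tgttctctgcacAGATAAggacaaacatta
Hbb-bt held no such motif in its window. CACCC, the core of KLF1 sites, was found in 5 of 5 windows but also in 56.7% of all promoters, and is shown for Hbb-bt, with a CACCC match in capitals.
Hbb-bt, chr7:103813995-103814024: cctgcagggtaaCACCCtggcattggccaa
CCAAT was found in 4 of 5 windows (37.9% of all promoters) and TATAAA in 2 of 5 (14.2%). These matches describe the letters in the window and do not locate a bound site.

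An RNA library held 852293 to 3993492 CDS counts, with 2103622 at the median, and an RPF library 2448915 to 13439600, with 6784598. As a check on the labels, Aco1 RPFs in Aco1-/- livers were at 19.6% of their controls and Ireb2 RPFs in Ireb2-/- livers at 50.1%. The RNA library of Ireb2+/+ replicate 3 at ZT5 stood apart, with 17.2% of its counts in 3′ UTRs against 22.1 to 27.6% in the others, and with 46.9% of its Hbb-bs counts in the CDS.

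Alas2 was detected in every liver, and varied less than any globin. Its RNA level was 62.6 CPM (counts relative to the size of the library, which was set by the upper quartile) in the lowest liver, 143 at the median and 187 in the highest, from 120 to 694 counts. In RPF libraries the lowest, median and highest levels were 56.0, 126 and 197 CPM. The highest liver held 2.98 times the Alas2 RNA of the lowest and 3.52 times the Alas2 RPF. By group, the RNA of the 3 livers (replicates 1, 2 and 3) was 158, 139 and 172 CPM in Aco1+/+ at ZT5, 105, 62.6 and 187 in Aco1-/- at ZT5, 120, 115 and 138 in Aco1+/+ at ZT12, and 122.1, 147.7 and 97.7 in Aco1-/- at ZT12. In the other line it was 171, 155 and 117 CPM in Ireb2+/+ at ZT5, 107.9, 168 and 147.5 in Ireb2-/- at ZT5, 142, 159 and 114 in Ireb2+/+ at ZT12, and 144.7, 152 and 164 in Ireb2-/- at ZT12. The 2 livers at the ends of this range, 62.6 and 187 CPM, were both Aco1-/- at ZT5, so the spread within that group was as wide as the spread of all 24. Ordered by group mean, Alas2 RNA ran from 156 ± 16.6 CPM (SD, n = 3) in Aco1+/+ at ZT5 to 118 ± 62.9 in Aco1-/- at ZT5, and in this order 0 neighbouring groups differed by more than the larger of their SDs.

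Few CDS reads came from globin mRNA in any liver, although most reads of Hbb-bs, Hbb-bt and Hba-a2 lay in the UTRs, which these values leave out. The 4 genes together held 7 to 358 CDS counts in an RNA library, which was 0.000215 to 0.0120% of its CDS counts (median 0.00264%), and 4 to 830 in an RPF library. Hbb-bs, one of the adult beta globins of C57BL/6 mice, lay between 1.09 and 60.6 CPM in RNA with a median of 13.2. Hbb-bs RNA was 28.1, 47.99 and 19.6 CPM in Aco1+/+ at ZT5, 5.88, 4.59 and 11.3 in Aco1-/- at ZT5, 37.9, 18.2 and 16.0 in Aco1+/+ at ZT12, and 51.9, 60.6 and 1.09 in Aco1-/- at ZT12. In Ireb2+/+ it was 21.5, 9.82 and 13.3 CPM at ZT5 and 19.6, 11.2 and 12.9 at ZT12, and in Ireb2-/- it was 7.73, 13.9 and 7.68 CPM at ZT5 and 8.73, 8.71 and 13.1 at ZT12. The Aco1 line thus held both the lowest and the highest livers, whereas the 12 livers of the Ireb2 line lay between 7.68 and 21.5 CPM. Hba-a1 RNA lay between 0.272 and 19.0 CPM (median 5.02), Hba-a2 between 0.416 and 13.6 (median 2.55) and Hbb-bt between 0 and 10.1 (median 2.52). RPF medians were 9.47 CPM for Hba-a1, 5.45 for Hba-a2, 4.35 for Hbb-bs and 1.46 for Hbb-bt, and the highest RPF value of each of the 4 genes, like the highest RNA value, belonged to Aco1-/- replicate 2 at ZT12. The plot of CPM by liver shows all 5 genes.

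**Figure D1:**
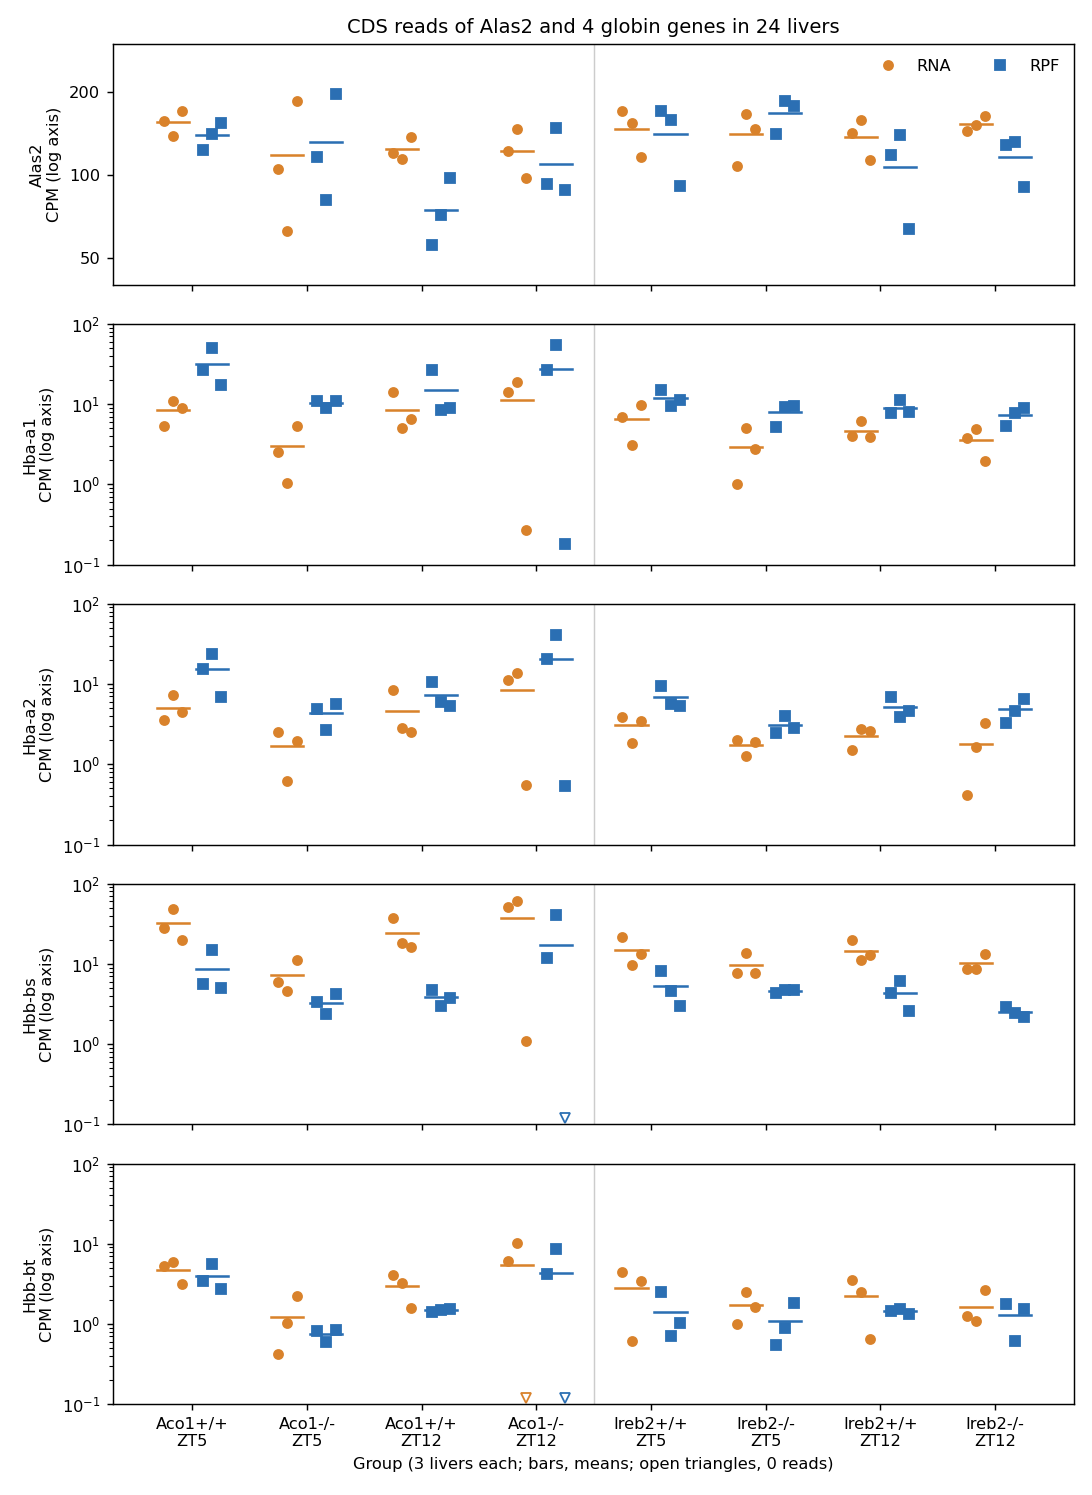
CPM of CDS reads (log axes) for Alas2 and the 4 globin genes, RNA in orange circles and RPF in blue squares, 3 livers in each of 8 groups, with bars for group means and open triangles for 0 reads. Alas2 stays between 56.0 and 197 CPM, while each globin spans more than an order of magnitude and falls to 0 or near it in Aco1-/- replicate 3 at ZT12.

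One liver was nearly without globin. Aco1-/- replicate 3 at ZT12 had 4 RNA counts of Hbb-bs, 1 of Hba-a1, 2 of Hba-a2 and 0 of Hbb-bt, and its RPF counts were 0, 1, 3 and 0 in the same order. The median Hbb-bs RNA of the other 23 livers was 12.2 times higher (95% exact Poisson interval 4.76 to 44.7, which covers counting error only). For Hbb-bs RPF the median of the other 23 was at least 8.09-fold higher, measured against a floor of 3 counts in this library. Alas2 in the same liver had 359 RNA counts, 97.7 CPM (interval 87.9 to 108.4), and the median of the other 23 was 1.48 times higher (1.33 to 1.65). One of the other 23 livers lay lower in Alas2 RNA. Its Alas2 RPF had 488 counts, 88.2 CPM, which 4 of the 23 livers fell below and which their median exceeded by 1.46 times (1.33 to 1.59). The liver with the least globin thus had Alas2 within the range of the rest. Its log2 translation efficiency (TE, the log2 ratio of RPF to RNA) of Alas2 was −0.15, between the −0.40 and 0.01 of the other Aco1-/- livers at ZT12. Those 2 livers had the highest Hbb-bs RNA of the series, 51.9 and 60.6 CPM, so the group held both extremes.

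The 4 globins moved together from liver to liver. In deviations from the 8 group means (log2 CPM, 24 livers), Pearson's r between pairs of globins was 0.73 to 0.92 in RNA and 0.90 to 0.96 in RPF. Without the nearly globin-free liver the same pairs gave 0.25 to 0.72 in RNA and 0.45 to 0.77 in RPF. The livers share one library for all 4 genes and the counts are low, so these values describe the data and carry no test. RNA and RPF of the same gene, which come from separate libraries, gave r between 0.84 and 0.93 for the globins and 0.80 for Alas2.

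The part of the transcript on which the RNA reads lay differed between the globins. Of Alas2 RNA reads on annotated parts, 89.8% lay in the CDS (95% Wilson interval 89.2 to 90.4%), 5.54% in the 5′ UTR and 4.65% in the 3′ UTR. For Hbb-bs the CDS held 15.0% of RNA reads (14.2 to 15.8%), with 34.3% in the 5′ UTR and 50.7% in the 3′ UTR, and 2.71% of the genes tested had a lower CDS share. Hbb-bt had 10.2% in the CDS and 65.7% in the 5′ UTR. Hba-a1, with 81.6% in the CDS, was closer to Alas2, and Hba-a2 had 28.1%. Over all annotated parts Hbb-bs had 8080 RNA reads against 10002 of Alas2, and it had more reads than Alas2 in 5 of 24 livers. The median gene had 59.4%. In RPF libraries the CDS held 99.9% of Alas2 reads, 99.4% of Hba-a1, 99.3% of Hba-a2, 90.2% of Hbb-bs and 85.7% of Hbb-bt (median gene 97.0%), so that the footprints of all 5 genes sat on their coding sequence. The twin alpha genes split their UTR reads, since Hba-a1 had 0 RNA reads in its 3′ UTR and Hba-a2 had 0 in its 5′ UTR. Hba-a1 had 1.72 times the CDS counts of Hba-a2 in RNA and 1.75 times in RPF, whereas Hbb-bs had 6.37 times those of Hbb-bt in RNA and 3.20 times in RPF. How reads that map to more than one globin copy were counted is not given in the sources used here, so the division between copies is uncertain.

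**Figure D2:**
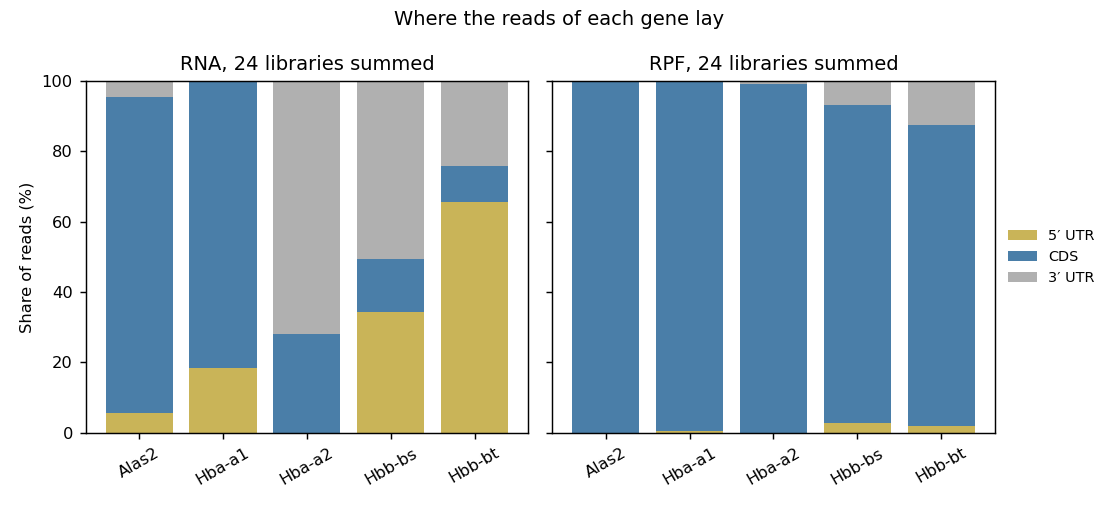
Share of reads (%) in the 5′ UTR, CDS and 3′ UTR of each gene, with 24 RNA libraries summed at left and 24 RPF libraries at right. RNA reads of Alas2 lie mostly in the CDS (89.8%) and those of Hbb-bs mostly outside it (15.0% in the CDS), while RPF reads of all 5 genes lie mostly in the CDS.

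To measure how far each gene went along with globin mRNA, the log2 level of Hbb-bs RNA was added to a model with the 8 groups, and the slope on it was tested with edgeR's quasi-likelihood test over 10695 genes. A slope of 1 means proportional change and 0 means none. The other globins followed closely. In RNA the slopes were 0.91 ± 0.13 for Hba-a1 (SE, adjusted p = 0.000142), 0.80 ± 0.12 for Hba-a2 (0.00038) and 1.05 ± 0.16 for Hbb-bt (0.000292), ranks 2, 3 and 1 of all genes. In RPF libraries, which share no reads with the Hbb-bs RNA values, they were 1.02 ± 0.11, 0.98 ± 0.08 and 0.86 ± 0.15 (adjusted p = 6.05e-05, 9.18e-09 and 0.0104). With an upward slope, 3 of 4 members were called in each assay, against 0.0655% of all genes in RNA and 0.0281% in RPF. These shares include the members themselves, since the globins were 3 of the 7 genes in RNA and all 3 in RPF. The globins moved together, so these are not 3 separate results. The Alas2 slope was 0.12 ± 0.06 in RNA (adjusted p = 0.546, rank 920) and 0.09 ± 0.08 in RPF (adjusted p = 0.797, rank 1190). The slopes of 90% of genes lay between −0.16 and 0.16 in RNA, so Alas2 lay inside the range of most genes. These calls rested on the nearly globin-free liver. Without it the Alas2 RNA slope was 0.27 ± 0.15 and that in RPF 0.11 ± 0.20 (both adjusted p = 1.0), and the globin slopes stayed between 0.79 and 0.92 in RNA with 0 of 3 called (0% of all genes upwards), and between 0.55 and 0.91 in RPF with 1 of 3 called (0.00935%). Hbb-bs CDS counts were few (median 32), which adds counting noise to the measure on which the slopes rest. Such noise can pull the slopes toward 0, by an amount that was not estimated. In the Ireb2 line alone, where globin varied least, 0 of the 3 globins were called in either assay. The RNA slopes there were 0.32 ± 0.44 for Hba-a1, 0.23 ± 0.52 for Hba-a2 and 1.25 ± 0.50 for Hbb-bt, beside 0.22 ± 0.15 for Alas2, so Alas2 and the alpha globins lay close together with wide errors. The RPF slopes were 0.35 ± 0.22, 0.82 ± 0.21 and 0.72 ± 0.47, beside 0.04 ± 0.31 for Alas2.

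**Figure D3:**
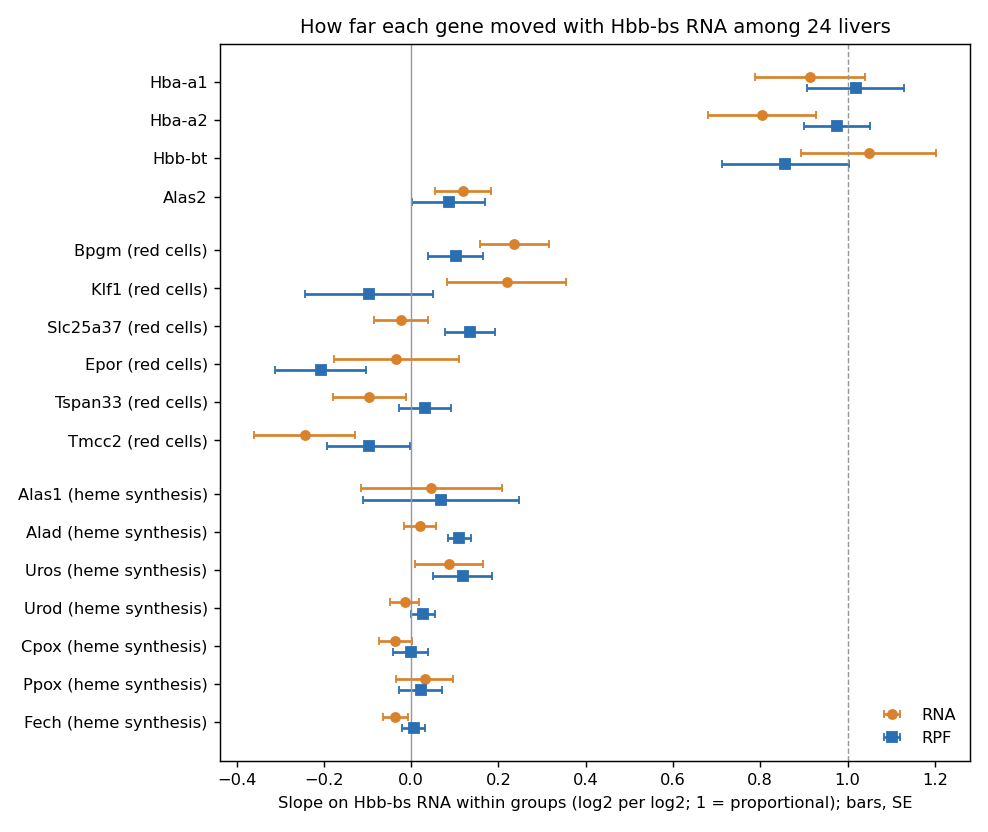
Slope of each gene on Hbb-bs RNA within groups (log2 per log2, 24 livers) with its SE, RNA in circles and RPF in squares; the dashed line at 1 marks proportional change. The 3 globins lie between 0.80 and 1.05, Alas2 at 0.12 and 0.09, and the red-cell and heme synthesis genes on both sides of 0.

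On a linear scale a related measure is the part of the Alas2 level that scaled with Hbb-bs within groups. It is the slope times the mean of Hbb-bs over the mean of Alas2. For RPF it sets Alas2 RPF against Hbb-bs RPF of the same library, whereas the RPF slopes above used Hbb-bs RNA. Variation that genes of an RPF library share can thus enter the RPF part but not those slopes, and was not separated. This part was 7.90% of Alas2 RNA (jackknife SE 5.93, n = 24; between 4.82 and 10.6% on leaving out each liver) and 9.48% of Alas2 RPF (SE 3.96; 8.73 to 12.8%). With the 4 globins summed the parts were 9.06% in RNA (SE 4.97) and 9.59% in RPF (SE 7.72), and the latter was 2.67% without Aco1-/- replicate 2 at ZT12. All but the RPF part on Hbb-bs alone were within 2 SEs of 0. Counting noise in the globin levels can also pull these parts toward 0, which the SEs do not cover. Within the lines it was 9.24% in Aco1 and 21.1% in Ireb2 for RNA, and 11.3% and 52.9% for RPF, the last over the narrow Hbb-bs RPF range of 2.19 to 8.09 CPM of the Ireb2 line. The plot of Alas2 against Hbb-bs shows both levels in each liver.

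**Figure D4:**
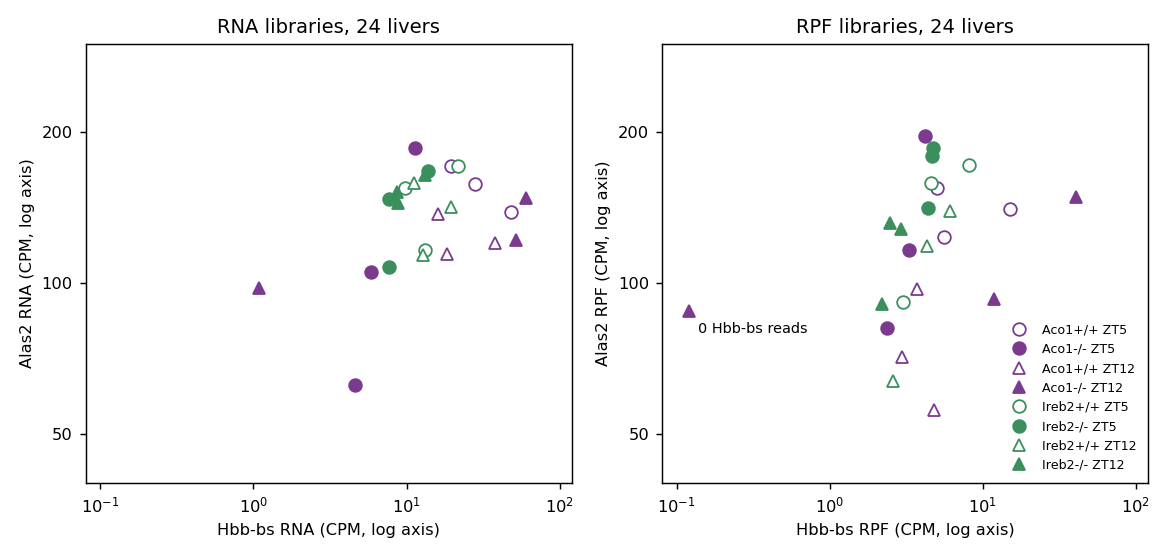
Alas2 against Hbb-bs (CPM, log axes) in RNA libraries at left and RPF libraries at right, 1 point a liver, with Aco1 livers in purple, Ireb2 livers in green, circles at ZT5, triangles at ZT12 and filled symbols for knockouts. The liver with 0 Hbb-bs RPF reads (placed at the left edge) has 88.2 CPM of Alas2 RPF, above 4 other livers.

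Deviations from the group means were also correlated for 12 relations of Alas2 (n = 24), with p-values from 100000 permutations within groups. Alas2 RNA with Hbb-bs RNA had Pearson's r = 0.41 (permutation p = 0.049, adjusted 0.114) and Spearman's rho = 0.29 (p = 0.274, adjusted 0.365), with r = 0.42 in each line alone (adjusted permutation p = 0.387 in Aco1 and 0.613 in Ireb2) and 0.41 without the 2 livers farthest in Hbb-bs (adjusted permutation p = 0.37). With UTR counts of Hbb-bs included, r was 0.43 and passed (permutation p = 0.0103, adjusted 0.031), with rho = 0.50 (adjusted 0.109). With Hba-a1 RNA, r was 0.52 (adjusted permutation p = 0.0809) and 0.35 without the 2 farthest livers. Alas2 RPF with Hbb-bs RPF had r = 0.39 (p = 0.0572, adjusted 0.114) and rho = 0.56 (p = 0.0221, adjusted 0.0662), with r = 0.38 in the Aco1 line, 0.88 in the Ireb2 line (adjusted permutation p = 0.0275) and 0.57 without the 2 farthest livers (adjusted permutation p = 0.0709). The difference between the lines was not tested. The remaining 5 relations between levels of Alas2 and single globins had r between 0.20 and 0.40, with 0 of 5 passing an adjusted p of 0.05.

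Other erythroid mRNAs were read in the same model. Of 21 red-cell genes listed, 8 were in the files and 6 passed the filter, and their summed RNA was 23.8 to 39.8 CPM (median 32.4), with 34.6 CPM in the nearly globin-free liver. In the slope model 0 of these 6 were called in RNA or RPF, where 0.0655% and 0.0281% of all genes were called upwards. Their median RNA slope was −0.03 with all livers and 0.12 without the nearly globin-free liver, when 0 genes, the globins included, were called in RNA. Bpgm, which makes 2,3-bisphosphoglycerate in red cells, had the highest RNA slope of the 6, 0.24 ± 0.08 (adjusted p = 0.261). The slope of Klf1, the erythroid transcription factor, was 0.22 ± 0.14 in RNA and −0.10 ± 0.15 in RPF. Tmcc2 had −0.24 ± 0.12. Of the sets for other cells that blood or liver holds, markers of neutrophils (2 of 6 in the files) and lymphocytes (3 of 5) summed to at most 3.36 and 2.72 CPM and those of platelets (5 of 6) to at most 5.07, whereas Kupffer cell genes summed to 231 to 461 CPM, endothelial genes to 302 to 467 and hepatocyte genes such as Alb to 90405 to 148740. Kupffer cells take up old red cells, and their sum was 258 CPM in the nearly globin-free liver. The part of these cells in the Alas2 signal was not tested.

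Between genotypes, 0 of the 5 genes passed an adjusted p of 0.05 in RNA or RPF at either timepoint (edgeR quasi-likelihood test). Of all genes, 0% passed in Aco1 RNA at ZT5, 0.00935% at ZT12, and 0.00935% and 0.299% in Aco1 RPF. In the Ireb2 line 0.00935% and 0.0187% passed in RNA and 0.0654% and 0.028% in RPF. At ZT5 globins were lower in Aco1-/- than in Aco1+/+ livers without overlap for 3 of 4 genes in RNA and 4 of 4 in RPF, where 4.39% and 3.78% of all genes did the same. Hbb-bs RNA was 7.25 ± 3.55 CPM against 31.9 ± 14.5 (SD, n = 3 each), a log2 difference of −2.21 ± 1.05 (SE, adjusted p = 1.0; exact permutation p = 0.1, the smallest that 3 against 3 can give), and Hbb-bs RPF 3.28 ± 0.906 against 8.53 ± 5.64 CPM, −1.42 ± 1.28. Hbb-bt RPF was at 0.828, 0.590 and 0.834 CPM in Aco1-/- and at 3.46, 5.57 and 2.73 in Aco1+/+ livers, a log2 difference of −2.37 ± 0.96 with an unadjusted p of 0.029 and an adjusted p of 1.0. Alas2 differed by −0.40 ± 0.34 in RNA and −0.08 ± 0.30 in RPF in the same comparison, and its groups overlapped. The RNA value was −0.91 without Aco1-/- replicate 3 at ZT5 and −0.08 without replicate 2 of that group. The summed RNA of the 8 red-cell genes was also lower without overlap, at 26.3 to 32.7 CPM in Aco1-/- and 33.0 to 35.7 in Aco1+/+ livers. In RNA 4.39% of single genes did the same, and the part of this sum in the result was not tested. At ZT12 the log2 difference in the Aco1 line was −0.02 ± 0.34 for Alas2 RNA, 0.55 ± 0.30 for Alas2 RPF, 0.60 ± 0.94 for Hbb-bs RNA and 2.17 ± 1.07 for Hbb-bs RPF. In the Ireb2 line Alas2 differed by −0.07 ± 0.16 at ZT5 and 0.15 ± 0.17 at ZT12 in RNA, and by 0.26 ± 0.32 and 0.13 ± 0.33 in RPF. Hbb-bs differed there by −0.73 ± 0.30 and −0.50 ± 0.32 in RNA, and by −0.15 ± 0.32 and −0.67 ± 0.43 in RPF. Mean Hbb-bs was thus lower in Ireb2-/- at both timepoints in both assays, and 0 of these 4 differences passed an adjusted p of 0.05. Hba-a2 RPF at ZT5 was 2.47, 3.96 and 2.85 CPM in Ireb2-/- and 9.49, 5.66 and 5.34 in Ireb2+/+ livers. It was the 1 globin lower there without overlap, as were 642 of 10694 genes. Neutrophil genes summed to 2.47 to 3.03 CPM in Ireb2-/- livers at ZT5 against 0 to 0.828 in Ireb2+/+, without overlap. Of single genes, 701 of 10694 lay higher there without overlap. The neutrophil sum rests on few reads, since 0 of its genes passed the filter on low counts, and its part was not tested.

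Between ZT5 and ZT12, again 0 of the 5 genes passed in RNA or RPF, although many other genes did. In RNA the share of all genes was 7.05% in Aco1+/+, 5.15% in Aco1-/-, 2.29% in Ireb2+/+ and 2.77% in Ireb2-/-, and in RPF it was 6.64%, 12.1%, 7.53% and 5.73%. Alas2 RPF was lower at ZT12 in the Aco1+/+ livers, 56.0, 71.5 and 97.5 CPM against 124.01, 141 and 155 at ZT5, a log2 difference of −0.89 ± 0.31 (unadjusted p = 0.0121, adjusted p = 0.107). These groups did not overlap, which held in the same direction for 15.3% of all genes. With only these 2 groups in the fit Alas2 was called (adjusted p = 0.00789; 9.6% of all genes), and likewise with DESeq2 (adjusted p = 0.0406; 7.7%). Alas2 RNA of the same livers differed by −0.32 ± 0.33, also without overlap (13.9% of all genes). In Ireb2-/- livers Alas2 RPF was 128, 131.8 and 90.8 CPM at ZT12 against 141, 186 and 179 at ZT5 (−0.53 ± 0.32), without overlap, as for 12.9% of all genes. In Aco1-/- and Ireb2+/+ livers the groups overlapped, with −0.26 ± 0.30 and −0.40 ± 0.32, and Alas2 RNA differed by 0.06 ± 0.34 in Aco1-/-, −0.09 ± 0.17 in Ireb2+/+ and 0.13 ± 0.17 in Ireb2-/-. For Hbb-bs RPF, the differences were −1.21 ± 1.15 in Aco1+/+, 2.39 ± 1.19 in Aco1-/-, −0.36 ± 0.33 in Ireb2+/+ and −0.88 ± 0.42 in Ireb2-/-. For Hbb-bs RNA they were −0.51 ± 0.92, 2.30 ± 1.06, −0.16 ± 0.29 and 0.07 ± 0.33. Some globin RPFs were also lower at ZT12 without overlap, Hbb-bs (2.97 to 4.78 against 5.00 to 15.0 CPM) and Hbb-bt (1.42 to 1.56 against 2.73 to 5.57 CPM) in Aco1+/+ and Hbb-bs (2.19 to 2.93 against 4.39 to 4.75 CPM) in Ireb2-/- livers. Alas2 RPF was lower on average at ZT12 in all 4 genotypes, whereas the mean CPM of all 4 globins was higher at ZT12 in Aco1-/- livers.

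The Aco1-/- result for globins turned on the nearly globin-free liver. That liver was singled out by its low Hbb-bs RNA. Leaving it out therefore raises the globin means at ZT12 and narrows their spread by construction. The calls without it describe the remaining livers and are no independent test. Without it, 4 of the 5 genes, the globins, were called in RNA between ZT5 and ZT12 (2.77% of all genes), with log2 differences of 2.99 ± 0.52 for Hbb-bs (adjusted p = 0.0197), 2.59 ± 0.51 for Hba-a1 (0.0072), 3.03 ± 0.51 for Hba-a2 (0.000446) and 2.72 ± 0.51 for Hbb-bt (0.00106). In RPF 3 were called (12.5% of all genes), Hbb-bs with 2.96 ± 0.58, Hba-a2 with 2.76 ± 0.47 and Hbb-bt with 3.00 ± 0.46. The same 3 were then called between genotypes at ZT12 in RPF (1.5% of all genes), with 2.74 ± 0.52, 2.06 ± 0.41 and 2.06 ± 0.37. Hba-a2 and Hbb-bt were called for the difference of the genotype effects in RPF (0.0935% of all genes), with 3.93 ± 0.62 and 4.44 ± 0.59. The summed red-cell genes lay between 34.6 and 39.8 CPM in Aco1-/- livers at ZT12, with the nearly globin-free liver the lowest of the 3. They lay between 26.3 and 32.7 in Aco1-/- at ZT5 and between 28.2 and 33.6 in Aco1+/+ at ZT12, both lower without overlap. Of single genes in RNA, 951 and 616 of 10694 lay higher without overlap in Aco1-/- at ZT12 in these comparisons. In Ireb2-/- livers the sum was also higher at ZT12 without overlap (as for 1071 of 10694 genes), at 32.1 to 38.7 CPM against 25.2 to 29.1 at ZT5. Hbb-bs RNA differed by 0.07 ± 0.33 between these groups. Endothelial genes were lower at ZT12 in the same comparison, at 349 to 362 CPM against 399 to 467, without overlap (as for 1232 of 10694 genes). Platelet genes were lower in Aco1-/- than in Aco1+/+ livers at ZT12, at 2.02 to 3.05 CPM against 3.26 to 4.09, without overlap (610 of 10694). The platelet sum rests on few reads, and 1 of its genes passed the filter on low counts. Marker sums are named where their groups did not overlap. The part of these cells in the results was not tested. Alas2 without this liver differed by 0.21 ± 0.39 in RNA and −0.12 ± 0.33 in RPF between ZT5 and ZT12, and was not called. With all 24 livers, the difference between the genotype effects at ZT12 and ZT5 was called for 0 of 5 genes in RNA or RPF of either line (0% of all genes in all 4 cases). For Alas2 it was 0.38 ± 0.48 in Aco1 RNA, 0.63 ± 0.43 in Aco1 RPF, 0.22 ± 0.23 in Ireb2 RNA and −0.14 ± 0.46 in Ireb2 RPF. For Hbb-bs it was 2.81 ± 1.41, 3.60 ± 1.66, 0.23 ± 0.44 and −0.52 ± 0.54.

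Some groups that overlapped in Alas2 RNA did not overlap in Alas2 TE. Aco1-/- livers had log2 TE of 0.14, 0.38 and 0.08 at ZT5 against −0.35, 0.02 and −0.15 in Aco1+/+, and −0.40, 0.01 and −0.15 at ZT12 against −1.11, −0.68 and −0.50. The knockouts lay above their controls without overlap at both timepoints, by 0.35 ± 0.16 (adjusted p = 1.0) and 0.59 ± 0.17 (unadjusted p = 0.000996, adjusted p = 0.238). Of all genes, 4.38% and 6.07% lay higher in the knockouts without overlap, and 0.00935% and 0.0935% passed an adjusted p of 0.05. TE was lower at ZT12 without overlap in Aco1+/+ (−0.59 ± 0.16, adjusted p = 0.261) and in Aco1-/- (−0.35 ± 0.17, adjusted p = 0.597), where 7.85% and 5.31% of all genes did the same and 0.0187% and 0.15% passed. In the Ireb2 line the livers had 0.39, 0.15 and 0.28 in knockouts against 0.00, 0.04 and −0.35 in controls at ZT5, and −0.17, −0.21 and −0.86 against −0.26, −0.19 and −0.84 at ZT12. Ireb2-/- livers lay above their controls at ZT5 (0.35 ± 0.17, adjusted p = 0.707), as 6.31% of all genes did and 0.00935% passed, and among them at ZT12 (−0.01 ± 0.18; 0%). Between ZT5 and ZT12 their TE differed by −0.67 ± 0.17 (unadjusted p = 0.000969, adjusted p = 0.648), without overlap as for 5.74% of all genes (0.00935% passed), and that of their controls by −0.31 ± 0.17 (adjusted p = 0.677; 0.533%). The difference of genotype effects was 0.24 ± 0.23 in Aco1 (0.028% of all genes) and −0.36 ± 0.24 in Ireb2 (0%). Alas2 was thus called in 0 of 10 comparisons of TE, and comparisons within a line share livers. The call depended on the fit. In Ireb2-/- over time Alas2 TE was called with the replicate number as a block (−0.69 ± 0.13, adjusted p = 0.00952), as were 0.028% of all genes, and with only these 2 groups (−0.66 ± 0.11, adjusted p = 2.92e-05), as were 0.383%. In Aco1+/+ over time it was called with only the 2 groups (adjusted p = 0.018; 0.739% of all genes).

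TE of Hbb-bs, whose mRNA carries no known IRE, was read in the same way. It was −0.85, −0.90 and −1.41 in Aco1-/- at ZT5 against −2.34, −1.67 and −1.93 in Aco1+/+ (0.84 ± 0.47). At ZT12 the Aco1-/- values were −2.13, −0.59 and −3.76, the last from 0 RPF counts with 0.5 counts added, against −2.97, −2.59 and −2.10 (1.37 ± 0.38, unadjusted p = 0.00118, adjusted p = 0.246). Without the nearly globin-free liver, which was picked by its low Hbb-bs RNA, the latter was 1.48 ± 0.34 with an adjusted p of 0.0255 (0.542% of all genes). On leaving out single livers it ranged from 0.40 (without Aco1-/- replicate 2 at ZT12) to 1.91 (without replicate 1). The means of the printed values at ZT12 were −2.16 in Aco1-/- and −2.55 in Aco1+/+, closer together than the fitted 1.37. Between ZT5 and ZT12 Hbb-bs TE differed by −0.65 ± 0.38 in Aco1+/+, −0.12 ± 0.48 in Aco1-/-, −0.23 ± 0.35 in Ireb2+/+ and −0.91 ± 0.45 in Ireb2-/-, and between genotypes of the Ireb2 line by 0.39 ± 0.35 at ZT5 and −0.29 ± 0.45 at ZT12. Its difference of genotype effects was 0.53 ± 0.59 in Aco1 and −0.68 ± 0.57 in Ireb2. Over time in Aco1-/- the means of the printed values were −1.05 at ZT5 and −2.16 at ZT12, farther apart than the fitted −0.12. Within groups, TE of Alas2 and of Hbb-bs went together, with r = 0.58 (permutation p = 0.00738, adjusted 0.0295) and rho = 0.76 (p = 0.00043, adjusted 0.00516), 0.81 without the 2 farthest livers (adjusted permutation p = 0.00348), 0.45 in the Aco1 line (adjusted permutation p = 0.387) and 0.79 in the Ireb2 line (0.0446). TE of Alas2 also went with that of the ferritin mRNAs Fth1 (r = 0.74, adjusted permutation p = 0.00564; rho = 0.72, 0.0173) and Ftl1 (r = 0.72, 0.00552; rho = 0.67, 0.0173), whose 5′ UTRs carry IREs, and without the 2 farthest livers r was 0.62 (adjusted permutation p = 0.0709) and 0.66 (0.0423). The relation with Hbb-bs TE missed an adjusted p of 0.05 on leaving out any of 9 livers. That with Ftl1 missed it on the linear scale (adjusted permutation p = 0.0555) and in the lines alone (0.0558 in Aco1 and 0.206 in Ireb2). That with Fth1 missed it in the Aco1 line (0.138). Both TEs of a liver come from the same 2 libraries, and the part of this in these relations was not tested. With the amount of globin itself, Hbb-bs RNA, Alas2 TE had r = −0.17 (adjusted permutation p = 0.523).

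**Figure D5:**
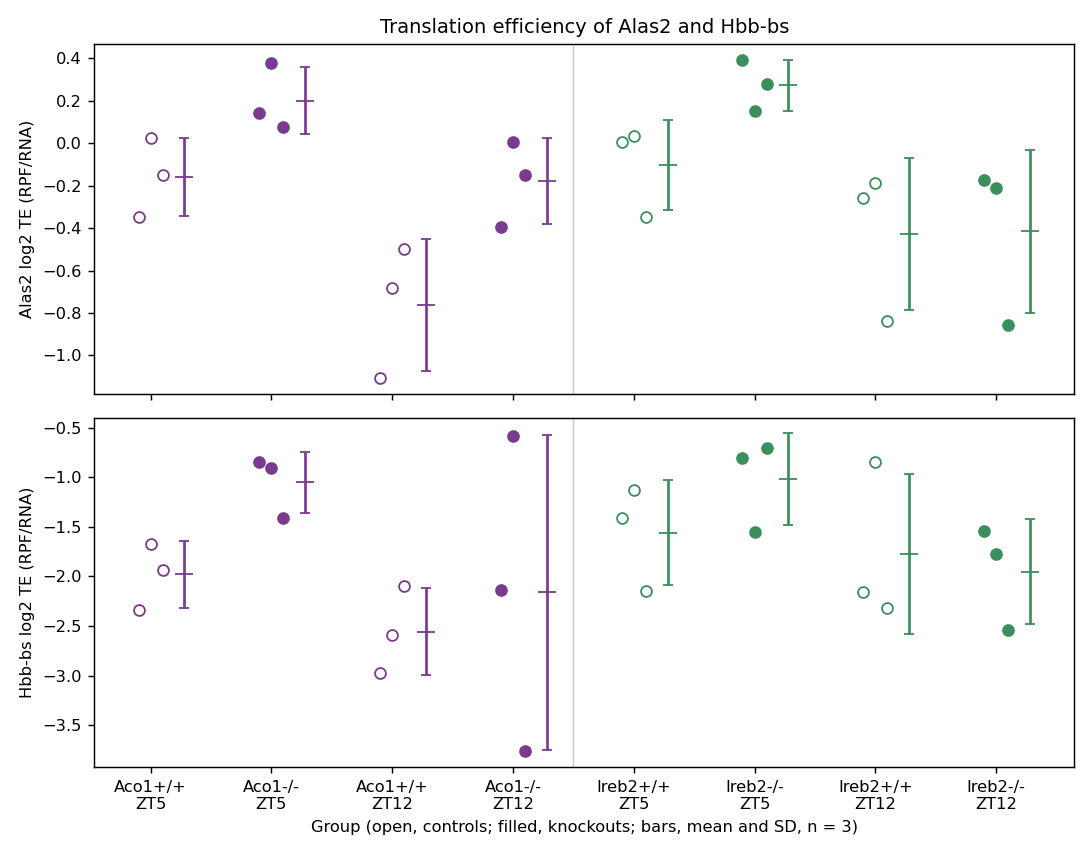
Log2 TE (RPF over RNA) of Alas2 above and Hbb-bs below, 1 point a liver in 8 groups, open for controls and filled for knockouts, with bars for the mean and SD (n = 3). Alas2 TE runs from −1.11 to 0.39 and is lowest on average in Aco1+/+ at ZT12, and the Aco1-/- livers at ZT12 span −3.76 to −0.59 in Hbb-bs.

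Adding the Hbb-bs value of each liver to the fit as a covariate left Alas2 without a call in all 30 comparisons. Its difference moved toward 0 in 17 of the 30, away from 0 in 8 and changed sign in 5. With Hbb-bs TE as the covariate, the Aco1 TE differences went from 0.35 to 0.24 between genotypes at ZT5, from 0.59 to 0.54 (± 0.15, adjusted p = 0.0844) at ZT12, from −0.59 to −0.53 between timepoints in controls and from −0.35 to −0.22 in knockouts. The Ireb2 TE differences went from 0.35 to 0.17 between genotypes at ZT5, from −0.31 to −0.25 between timepoints in controls and from −0.67 to −0.34 (± 0.15, adjusted p = 0.858) in knockouts. The difference of genotype effects in TE went from 0.24 to 0.30 in Aco1 and from −0.36 to −0.09 in Ireb2. With Hbb-bs RNA as the covariate, the Alas2 RPF difference between timepoints went from −0.89 to −0.85 in Aco1+/+ and was −0.53 and −0.54 in Ireb2-/-. It went from −0.26 to −0.37 in Aco1-/-. Alas2 RNA went from −0.40 to −0.19 between genotypes at ZT5 in Aco1 and from 0.15 to 0.25 at ZT12 in Ireb2. Whether these shifts differed between the lines was not tested.

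Other enzymes of heme synthesis were set beside Alas2. All 7 of the list (Alas1, Alad, Uros, Urod, Cpox, Ppox and Fech) passed the filter, and 0 of 7 were called in the slope on Hbb-bs RNA, with RNA slopes between −0.04 and 0.09 and RPF slopes between −0.0013 and 0.12. In the 30 comparisons Alas1 alone of the 7 was called, and higher at ZT12 in RPF in both cases, by 3.31 ± 0.80 in Aco1-/- (adjusted p = 0.0323; 12.1% of all genes called) and 2.55 ± 0.61 in Ireb2+/+ (adjusted p = 0.0435; 7.53%). Of the 6 red-cell genes only Slc25a37, the mitochondrial iron importer mitoferrin 1, was called, higher at ZT12 in RNA by 0.98 ± 0.28 in Aco1+/+ (adjusted p = 0.0281; 7.05% of all genes) and 0.88 ± 0.27 in Aco1-/- (adjusted p = 0.0482; 5.15%). Alas2 RNA in the same comparisons differed by −0.32 and 0.06.

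By likeness of deviations from the group means in RNA (24 livers, 10696 genes), the 5 genes closest to Alas2 were Mia2 (r = 0.80), Nedd4 (0.80), Plce1 (0.79), Atp8b1 (0.79) and Copb2 (0.77), and Hba-a1 came at rank 260 and Hbb-bs at rank 735. For Hbb-bs the closest were Hbb-bt (0.92), Hba-a1 (0.88), Mterf2 (0.84), Ppt1 (0.84) and Tpm1 (0.83), with Hba-a2 at rank 6 and Alas2 at rank 1027. Likeness was read from the same libraries for all genes and is given as a description.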

How the data were processed

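Total RNA and ribosome-protected fragments of 24 mouse livers were sequenced by the authors. Per the study's methods, adapters were removed with cutadapt 3.5, reads were filtered by quality and length, rRNA and tRNA reads were discarded with Bowtie2, and the rest were mapped with STAR 2.70f to GRCm38. The deposited files hold raw read counts per gene and sequencing run, not normalised. The counting tool, its strand setting and the names of the count columns are not given in the sources used here. Column meanings (5′ UTR, CDS, 3′ UTR, a column of zeros and 1 not identified) were read from the values.

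Runs of a library were summed and CDS counts used. Genes were kept by filterByExpr (minimum count 10, minimum total 15). Upper-quartile factors were computed over all 48 libraries, and each line was tested with edgeR's quasi-likelihood test, the 4 groups sharing the estimate of spread. TE was the RPF by RNA interaction with a term for mouse, and log2 values used a prior count of 0.5. p-values were adjusted over all 10696 genes by Benjamini-Hochberg (threshold 0.05), and for correlations over 12 relations. For a single value, 3 livers were set against 3 in an exact permutation test (two-sided). p-values measure the spread between these livers. Printed genes are the 5 members, listed red-cell and heme synthesis genes, ferritin mRNAs and the 5 genes most like Alas2 or Hbb-bs in RNA. Also printed are the knocked-out genes, Alb, and some genes with a called slope on Hbb-bs RNA, chosen after their values were seen. Of the listed genes, 2 are not reported here. The members, lists and tests were chosen with earlier results of these data known. Alternatives were TMM, DESeq2, other filters, first runs alone, all count columns, the 2 groups compared alone, unpaired libraries, limma on TE, covariates, the replicate number as a block, lines alone and each liver left out. Promoter sequences came from RefSeq (GRCm38.p6). Scripts were tested on simulated data. The tools were Python 3.11.15 (SciPy 1.17.1, pandas 2.3.3, NumPy 2.4.6, Matplotlib 3.10.9) and R 4.3.3 (limma 3.58.1, edgeR 4.0.16, DESeq2 1.42.0).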

Additional observations from a re-analysis of the deposited data

Results flagged for a closer look

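Each count file holds a further column whose meaning could not be read from its values and which no comparison above uses. For 3 of the 5 genes it held more than the 3 counts that a count of 0 allows. Summed over 24 libraries of each kind, Alas2 had 508 RNA and 446 RPF counts there, Hba-a1 had 60 and 204, and Hba-a2 had 54 and 126.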

How the results depend on the processing

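With all 24 livers and the fits described, 0 of the 5 genes were called in 30 comparisons, and 21 of 150 tests (14%) had an unadjusted p under 0.05, against 9.59% of the tests of all genes. Some alternatives called members, in these comparisons. For RPF in Aco1+/+ over time, DESeq2 called 1 (Alas2, −0.87; 7.7% of all genes) and the 2 groups alone 2 (9.6%), and for TE in Aco1+/+ over time the 2 groups alone called 2, with Alas2 at −0.59 (adjusted p = 0.018; 0.739% of all genes). With Hbb-bs RNA as a covariate 1 was called in Aco1-/- RPF over time, Hba-a1 with −1.69 ± 0.47 (adjusted p = 0.0317; 10.2%). For TE in Aco1 at ZT12, all count columns for RNA called 1 (Hbb-bs, 1.47; 0.451%). For TE in Ireb2-/- over time the 2 groups alone called 1 (0.383%). In the paired analysis, with the replicate number as a block (replicate block), 1 was called as well, Alas2 with −0.69 (adjusted p = 0.00952; 0.028%). Same-numbered livers correlated over 0.1 in 1 of 12 pairs between genotypes in RNA and 6 of 12 in RPF, and in 1 of 12 pairs between timepoints in either assay. All 3 pairs did so in 1 of 16 comparisons, Ireb2 RPF between genotypes at ZT12 (0.112 to 0.133), where the block gave 0.16 ± 0.21 for Alas2 and −0.70 ± 0.37 for Hbb-bs and called 0 members. The pairs of Ireb2-/- over time lay between −0.11 and 0.10 in RPF, so that there the livers share only a number. On leaving out each liver in turn, members called ranged from 0 to 4 for Aco1-/- RNA over time, 0 to 3 for Aco1-/- RPF over time, 0 to 3 for Aco1 RPF at ZT12, 0 to 2 for the difference of genotype effects in Aco1 RPF, and 0 to 1 for Aco1 TE at ZT12. The 4, the 3, the 3 and the 2 came without Aco1-/- replicate 3 at ZT12, and the 1 without that liver or without Aco1-/- replicate 1 at ZT12.

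Some differences changed sign, among them Hbb-bs values of −0.68, 0.53 and 0.39 (the differences of Ireb2 and Aco1 TE effects and Ireb2 TE at ZT5), and the cause was not tested. Alas2 did so with the replicate block in Aco1 RNA at ZT12 (0.0119) and in Ireb2 TE at ZT12 (0.0026), where limma on TE per mouse gave 0.0127. With the Hbb-bs covariate it did in Aco1 RNA at ZT12 (0.0309), Aco1-/- RNA over time (−0.058, and −0.0411 with first runs alone), Aco1 RPF at ZT5 (0.0906), Ireb2 RNA at ZT5 (0.0589) and Ireb2 TE at ZT12 (0.0785, with Hbb-bs TE). Hbb-bs did so in Aco1-/- TE over time with first runs alone (0.15), all count columns (0.49) and unpaired libraries (0.0776), in the difference of Aco1 TE effects with limma (−0.53), with first runs alone in Ireb2+/+ RNA over time (0.18) and the difference of Ireb2 RNA effects (−0.10), and with all count columns in Ireb2-/- RNA over time (−0.42), the differences of Ireb2 RNA (−0.38) and TE (0.0155) effects and Ireb2 TE at ZT5 (−0.17).

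Leaving out single livers moved 48 of 60 differences of Alas2 and Hbb-bs by over 1.5 times, 20 of them with a change of sign. It moved Alas2 between −0.20 and 0.14 in Aco1 RNA at ZT12, −0.26 and 0.56 in Aco1-/- RNA over time, −0.48 and 0.16 in Aco1 RPF at ZT5, −0.54 and 0.14 in Aco1-/- RPF over time, −0.22 and 0.0905 in Ireb2 RNA at ZT5, −0.23 and 0.0372 in Ireb2+/+ RNA over time, −0.0346 and 0.27 in Ireb2-/- RNA over time, −0.15 and 0.36 in Ireb2 RPF at ZT12, −0.41 and 0.10 in the difference of Ireb2 RPF effects, and −0.18 and 0.20 in Ireb2 TE at ZT12. It moved Hbb-bs between −0.44 and 1.30 in Aco1 RNA at ZT12, −1.09 and 0.42 in Aco1-/- TE over time, −0.44 and 1.07 in the difference of Aco1 TE effects, −0.42 and 0.28 in Ireb2+/+ RNA over time, −0.12 and 0.37 in Ireb2-/- RNA over time, −0.21 and 0.53 in the difference of Ireb2 RNA effects, −0.42 and 0.26 in Ireb2 RPF at ZT5, −0.68 and 0.0542 in Ireb2+/+ RPF over time, −0.53 and 0.23 in Ireb2 TE at ZT12, and −0.74 and 0.0163 in Ireb2+/+ TE over time. Without a change of sign, Alas2 moved between 0.0624 and 0.89 in the difference of Aco1 RNA effects (without Aco1-/- replicates 2 and 3 at ZT5), and Hbb-bs between 0.72 and 2.74 in Aco1 RPF at ZT12 (without Aco1-/- replicates 2 and 3) and between 0.40 and 1.91 in Aco1 TE at ZT12 (without replicates 2 and 1). Alas2 also moved without a change of sign, over these ranges, in Aco1 RNA −0.91 to −0.0821 at ZT5, in Aco1 RPF 0.36 to 1.03 for the difference of effects and 0.27 to 0.79 at ZT12, in Aco1 TE 0.0804 to 0.37 for the difference of effects, in Ireb2 RNA 0.0561 to 0.36 for the difference of effects and 0.0292 to 0.26 at ZT12, in Ireb2 RPF −0.63 to −0.12 over time in controls and 0.0357 to 0.43 at ZT5, and in Ireb2 TE −0.44 to −0.13 over time in controls and −0.54 to −0.15 for the difference of effects. Hbb-bs did so in Aco1 RNA −0.95 to −0.0489 over time in controls, 1.26 to 2.99 over time in knockouts and 1.77 to 3.52 for the difference of effects, in Aco1 RPF −1.52 to −0.48 over time in controls, 0.94 to 2.96 over time in knockouts, 2.15 to 4.17 for the difference of effects and −1.73 to −0.70 at ZT5, in Aco1 TE −0.87 to −0.37 over time in controls, in Ireb2 RNA −0.72 to −0.24 at ZT12 and −1.03 to −0.29 at ZT5, in Ireb2 RPF −0.94 to −0.21 for the difference of effects and −1.05 to −0.36 at ZT12, and in Ireb2 TE −1.25 to −0.57 over time in knockouts, −1.02 to −0.17 for the difference of effects and 0.20 to 0.73 at ZT5.

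Of the correlations, Alas2 with Hbb-bs RNA passed with UTR counts included (r = 0.43), and RPF with Hbb-bs RPF passed on the linear scale (0.42) and in the Ireb2 line (0.88), with 0.24 to 0.61 on leaving out each liver, where it passed without any one of the 3 Aco1-/- livers at ZT12. Alas2 with Hba-a1 RNA passed without Ireb2+/+ replicate 3 at ZT5 (0.59). For TE, Alas2 with Hbb-bs missed the threshold in the Aco1 line (0.45) and on leaving out any of 9 livers (0.54 to 0.81 over all), with Fth1 in the Aco1 line (0.78) and without the 2 farthest livers (0.62), and with Ftl1 on the linear scale (0.56) and in either line (0.85 and 0.64). Alas2 RNA with Hba-a2 was −0.0155 in the Ireb2 line, and Alas2 RPF with Hba-a1 −0.0503 without the 2 farthest livers. The part of Alas2 that scaled with Hbb-bs was 21.1% in RNA and 52.9% in RPF in the Ireb2 line. Slopes on Hbb-bs were called for 18 genes in RNA, 10 with summed globins as the measure, 89 with UTR counts of Hbb-bs included, 95 with those alone and 0 in the Ireb2 line. In RPF the numbers were 7, 1, 32, 32 and 0.

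Depth limits the globins most, with a median of 6 CDS counts for Hbb-bt and 6.5 for Hba-a2 in an RNA library, and intervals cover counting error only. By total CDS counts in place of the upper quartile the median Alas2 RNA level was 170 CPM. Over all genes, calls with all livers (and their range over alternatives) were in Aco1 RNA 0 (0 to 8) between genotypes at ZT5, 1 (0 to 51) at ZT12, 754 (323 to 1056) over time in controls, 551 (296 to 717) in knockouts and 0 (0 to 3) for the difference of effects. In the same order they were in Aco1 RPF 1 (1 to 3), 32 (7 to 160), 710 (299 to 1032), 1293 (531 to 1600) and 0 (0 to 13), and in Aco1 TE 1 (1 to 1), 10 (0 to 58), 2 (0 to 79), 16 (0 with limma on TE per mouse, and more than 16 with all count columns for RNA) and 3 (0 to 15). In Ireb2 they were 1 (0 to 7), 2 (1 to 6), 245 (104 to 489), 296 (128 to 486) and 0 (0 to 0) in RNA, 7 (0 to 53), 3 (1 to 20), 805 (389 to 814), 613 (217 to 688) and 0 (0 to 0) in RPF, and 1 (0 to 5), 0 (0 to 19), 57 (0 to 106), 1 (0 to 41) and 0 (0 to 6) in TE.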

Other observations

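Apart from the globins, 15 genes had a slope on Hbb-bs RNA that passed an adjusted p of 0.05 in RNA (edgeR quasi-likelihood test over 10695 genes), and those named here were chosen after their values were seen. Of them 4 were positive, among them Ndufa12 (0.35 ± 0.08, adjusted p = 0.039) and Uqcrb (0.27 ± 0.06, 0.0485), subunits of the mitochondrial respiratory chain. Negative slopes were found in 11, among them Hamp, which encodes the iron hormone hepcidin (−0.26 ± 0.05, 0.0152), and Smad7, an inhibitor of the BMP signalling that controls Hamp (−0.27 ± 0.06, 0.0221). Without the nearly globin-free liver 0 genes passed in RNA, with 321 at an unadjusted p under 0.05.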
